A study of Triticum aestivum with 4 samples.

Results

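TaDMAS1 and TaPCS1 are the wheat genes for deoxymugineic acid synthase and phytochelatin synthase, enzymes that make small molecules which bind metal ions. They were taken by gene symbol or synonym in the probe annotation, a rule that uses no measured value, and are 2 of the 771 genes paired with a probe set. Their 4 probe sets, 3 for TaDMAS1 and 1 for TaPCS1, are all described here, among 61179 probe sets without controls. Total RNA of seedling roots of common wheat (Triticum aestivum) was hybridised to 1-colour Affymetrix arrays. There was 1 array for each of 4 groups: the cultivar Luohan No.2 in tap water, Luohan No.2 in polyethylene glycol (PEG), the cultivar Chinese Spring in tap water and Chinese Spring in PEG. PEG treatment lasted 6 h at an osmotic potential of -0.49 MPa, a common stand-in for drought that draws water out of the tissue. The labels do not say how many seedlings entered a sample. No group has a replicate, so plant to plant variation enters each ratio of an array to another without an estimate of its size. Precision is limited by how few arrays there are.

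Grasses take up iron by releasing phytosiderophores of the mugineic acid family from their roots and importing the iron complexes. S-adenosylmethionine is joined into nicotianamine by nicotianamine synthase, an aminotransferase converts nicotianamine to a keto intermediate, and deoxymugineic acid synthase reduces this intermediate to deoxymugineic acid, the phytosiderophore of wheat. The pathway is best known for its induction in iron-deficient grass roots. Phytochelatin synthase works on another substrate: it joins glutathione units into phytochelatins, peptides that bind cadmium and other metals for storage in the vacuole. The enzyme is switched on by metal ions after translation, and wheat TaPCS1 is known for giving yeast cadmium tolerance.

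The deposited values are MAS5 signals, intensities on a linear scale scaled to a common mean on each array. On that scale all 4 probe sets lay above 10.6, the 40th percentile of all signals, on all 4 arrays. This level was used as a floor for weak signals and therefore altered no ratio of the members. Signal levels of different probe sets are not set against each other, because probes differ in their affinity.

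The signals of each TaDMAS1 probe set differed by at most 1.47-fold among the 4 arrays. Its brightest probe set, Ta.5335.3.S1_a_at, had signals of 419.3 on the Luohan No.2 water array, 347.4 on the Luohan No.2 PEG array, 318.6 on the Chinese Spring water array and 295.4 on the Chinese Spring PEG array. Both Luohan No.2 signals were above both Chinese Spring signals, and within each cultivar the PEG array was the lower one. The PEG signal was lower by a ratio of 1.21 in Luohan No.2 and by 1.08 in Chinese Spring. Between the cultivars it was 1.32-fold higher in Luohan No.2 in water and 1.18-fold higher in PEG. Ordered from high to low, neighbouring arrays were 0.27, 0.12 and 0.11 log2 units apart.

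The other 2 probe sets of TaDMAS1 come from a single target sequence. Ta.5335.1.A1_x_at, whose suffix marks probes that can also bind other sequences, read 170.8 in water and 116.5 in PEG for Luohan No.2, and 161.3 in water and 136.9 in PEG for Chinese Spring. Both water signals were above both PEG signals, with a ratio of 1.47-fold for Luohan No.2 and of 1.18-fold for Chinese Spring. Ta.5335.1.A1_at, with the suffix for probes specific to the target, read 120.5 in water and 125.9 in PEG for Luohan No.2, and 130.9 in water and 152.6 in PEG for Chinese Spring. Here both Chinese Spring signals were above both Luohan No.2 signals, and the PEG array was the higher one in each cultivar, by 1.05-fold and 1.17-fold in the same order. The probe sets thus did not share a direction: with PEG the brightest and the cross-hybridising set were lower in both cultivars and the specific set was higher in both.

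TaPCS1 has the single probe set Ta.232.1.S1_at, and its signals were the lowest on the Chinese Spring water array. They were 84.9 on the Luohan No.2 water array, 90.0 on the Luohan No.2 PEG array, 62.0 on the Chinese Spring water array and 112.9 on the Chinese Spring PEG array. The Luohan No.2 arrays lay between the 2 Chinese Spring arrays, so the cultivars overlap. The PEG to water ratio of the TaPCS1 signal was 1.06-fold for Luohan No.2 and 1.82-fold for Chinese Spring, the latter being the largest ratio among the 4 probe sets in the 4 comparisons. The signal was 1.37-fold higher in Luohan No.2 than in Chinese Spring in water and 1.25-fold lower in PEG. From high to low, neighbouring arrays were 0.33, 0.08 and 0.45 log2 units apart.

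**Figure D1:**
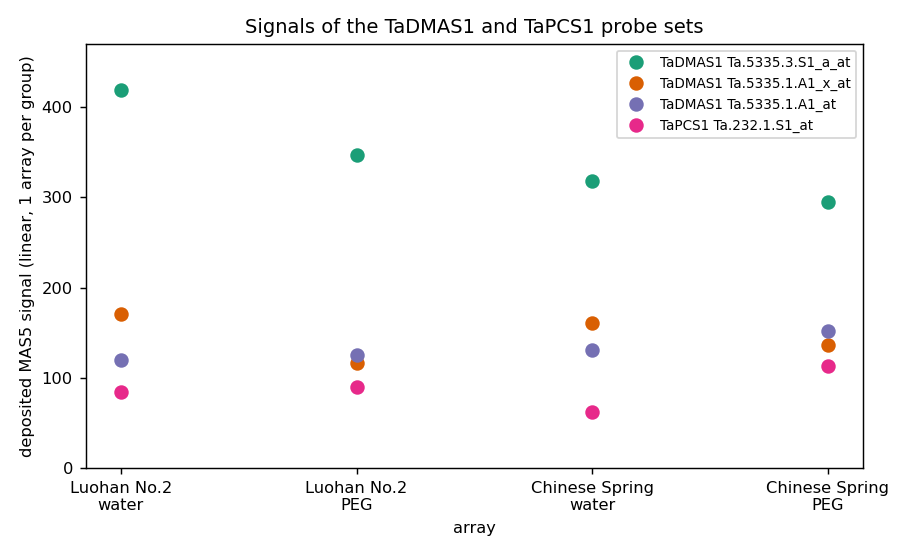
Deposited MAS5 signal (linear scale, starting at 0) of the 3 TaDMAS1 probe sets and the TaPCS1 probe set on the 4 arrays. There is 1 point per probe set and array, with no error bar since each group has 1 array. The brightest TaDMAS1 probe set lies between 295.4 and 419.3, and TaPCS1 is lowest, at 62.0, on the Chinese Spring water array.

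None of the 4 probe sets was 2-fold apart in any comparison of 1 array with 1 array. With PEG in Luohan No.2, 0 of 4 passed 2-fold, where 17.7% of 38468 measured probe sets did, and in Chinese Spring 0 of 4 against 20.5% of 46102. Between the cultivars the count was 0 of 4 in water against 21.3% of 42716, and 0 of 4 in PEG against 23.1% of 43378. With so few probe sets, a count of 0 is no result about these genes against such shares. The median log2 ratio of the 4 was -0.10 for PEG in Luohan No.2, where all measured probe sets had 0.02, and 0.06 in Chinese Spring, where they had -0.04. For Luohan No.2 against Chinese Spring it was 0.24 in water and -0.26 in PEG, beside -0.22 and -0.20 over all measured probe sets.

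Weak probe sets dominate those shares, and bright ones give a closer background. Among 10574 probe sets above a signal of 100 on all 4 arrays, which include the 3 of TaDMAS1 but not that of TaPCS1, 11.9% were at least 2-fold apart with PEG in Luohan No.2 and 9.98% in Chinese Spring. Between the cultivars 7.69% of them were in water and 11.1% in PEG, and 0 of the 3 TaDMAS1 sets were in any of these comparisons. In this bright set the middle 50% of log2 PEG ratios ran from -0.34 to 0.43 in Luohan No.2 and from -0.35 to 0.26 in Chinese Spring. The brightest TaDMAS1 probe set, at -0.27 and -0.11, and the specific one, at 0.06 and 0.22, lay inside these ranges in both cultivars. The cross-hybridising set lay below the range in Luohan No.2, at -0.55, and inside it in Chinese Spring, at -0.24. The TaPCS1 ratio in Chinese Spring, 0.86, lay above the middle 50% and below the 95th percentile of 0.99. For the cultivar ratios the middle 50% ran from -0.34 to 0.39 in water and from -0.29 to 0.46 in PEG. In water the brightest TaDMAS1 set, at 0.40, and TaPCS1, at 0.45, lay above it. In PEG TaPCS1, at -0.33, lay below it. The remaining cultivar ratios of the probe sets lay inside.

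**Figure D2:**
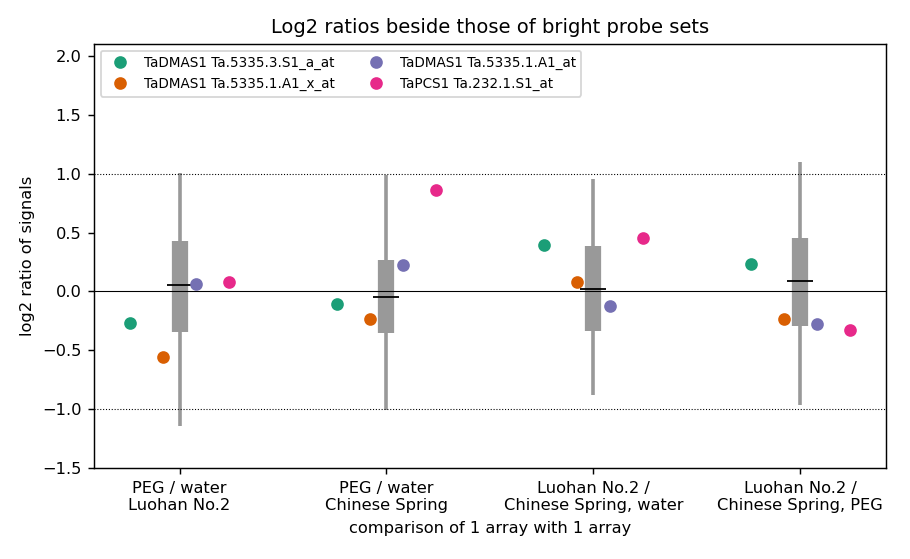
Log2 signal ratios of the 4 probe sets (coloured points) in the 4 comparisons of 1 array with 1 array; grey bars span the middle 50% and grey lines the 5th to 95th percentile of 10574 probe sets above a signal of 100 on all 4 arrays, black ticks are their medians, and dotted lines mark 2-fold. All 16 points lie within the dotted lines, and the highest is TaPCS1 for PEG in Chinese Spring at 0.86.

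The PEG effect over both cultivars was estimated in limma with cultivar as a block, a fit over 48877 probe sets that called 1.32% of them at an adjusted p under 0.05. It called 0 of the 4 probe sets, and 0 of 4 also at an unadjusted p under 0.05, which 9.49% of all probe sets passed. For the brightest TaDMAS1 probe set the log2 effect was -0.19 ± 0.41 (SE), with a 95% interval from -1.07 to 0.69 and a limma adjusted p of 0.958. For the cross-hybridising and the specific set the effects were -0.39 ± 0.41 (limma adjusted p = 0.884) and 0.14 ± 0.41 (limma adjusted p = 0.973). For TaPCS1 it was 0.47 ± 0.42, with an interval from -0.44 to 1.39 and a limma adjusted p of 0.851. The interval reaches past 2-fold downward for the brightest TaDMAS1 set and upward for TaPCS1. It ran from -1.28 to 0.49 for the cross-hybridising set and from -0.74 to 1.03 for the specific set. The TaDMAS1 intervals thus reach past 2-fold in both directions, depending on the probe set. With 1 residual degree of freedom per probe set and 11.63 from limma's prior, the error comes mainly from a spread pooled over all probe sets. That residual is the difference between the cultivars' PEG ratios, so the error holds real differences in response as well as array noise.

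The cultivar effect, Luohan No.2 against Chinese Spring with condition as a block, passed the limma threshold for 2.06% of the 48877 probe sets and for 0 of the 4, with 0 of 4 also at an unadjusted p under 0.05, which 13.1% passed. The log2 effect was 0.32 ± 0.41 (SE) for the brightest TaDMAS1 probe set, with a 95% interval from -0.57 to 1.20 and a limma adjusted p of 0.831. The cross-hybridising set had -0.08 and the specific set -0.20 (limma adjusted p = 0.970 and 0.903). TaPCS1 had 0.06 ± 0.42, with an interval from -0.85 to 0.98 (limma adjusted p = 0.975), after ratios of opposite sign in water and PEG. Between cultivars, a variant in the probed sequence and a difference in transcript level cannot be told apart. The gene entry for TaDMAS1 carries the synonyms DMAS1-A and DMAS1-B, and the separate entry DMAS1-D has 0 probe sets paired with it, so how far these probes also bind related copies was not tested.

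Direction between the cultivars changed under 1 of the alternative scalings. Quantile normalization kept the sign of all 8 cultivar ratios of the 4 probe sets. When each array was set to the same median signal, bright probe sets shifted towards Luohan No.2 by 0.59 log2 units in water and 0.54 in PEG. All 4 probe sets were then higher in Luohan No.2 in both conditions, which turned the sign of the specific TaDMAS1 set in water and PEG and of the cross-hybridising set and TaPCS1 in PEG. Under that scaling TaPCS1 passed 2-fold in water, at 1.04 on the log2 scale, beside a median of 0.61 for bright probe sets and with 23.9% of all measured probe sets past 2-fold. Within a cultivar the PEG ratios kept their sign for all 4 probe sets under quantile normalization and under equal medians. The other floors and the added constant could not turn a sign. Those floors altered no ratio of the members, and a constant added to each signal keeps the order of the arrays.

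The difference between the cultivars' PEG ratios has no test with 1 array per group. It was largest for TaPCS1, whose PEG ratio was 1.72-fold higher in Chinese Spring than in Luohan No.2. For the 3 TaDMAS1 probe sets it was between 1.12-fold and 1.24-fold, also towards Chinese Spring. All 4 differences are below 2-fold, a size that 29.5% of 35693 probe sets passed in either direction. As a check of RNA quality, the control probe sets at the start of the sucrose synthase transcript were divided by those at its end. This ratio was 0.0554 in water and 0.0216 in PEG for Luohan No.2, against 0.0805 in water and 0.0693 in PEG for Chinese Spring. It was thus lowest for Luohan No.2 in PEG. The same array was lowest by this ratio for the control G6PDH, at 0.243 against 0.375 to 0.39 on the others. For the control ubiquitin it was again lowest, at 1.59 against 2.45 to 3.5. The part of RNA quality in the lower PEG ratios of that cultivar was not tested.

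Probe sets made from the same target sequence give a measure of disagreement between probe sets. It is not technical alone, since the _x_at set of a pair can also bind other sequences. Among 563 other pairs with the suffixes _at and _x_at, all above 100 on all 4 arrays, the log2 PEG ratios of the 2 members differed by a median of 0.17 for Luohan No.2 and 0.13 for Chinese Spring. The TaDMAS1 pair differed by 0.62 and 0.46, and 5.51% and 7.82% of the other pairs differed by more. Opposite signs within a pair, as in TaDMAS1, were found in 93 of the 563 in Luohan No.2 and 94 in Chinese Spring. For the cultivar ratios the TaDMAS1 pair was closer, 0.20 apart in water and 0.04 in PEG in absolute terms, and 41.2% and 86.1% of the other pairs differed by more. Both members of a pair saw the same RNA on the same array, so these values leave out any noise that a whole transcript shares.

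**Figure D3:**
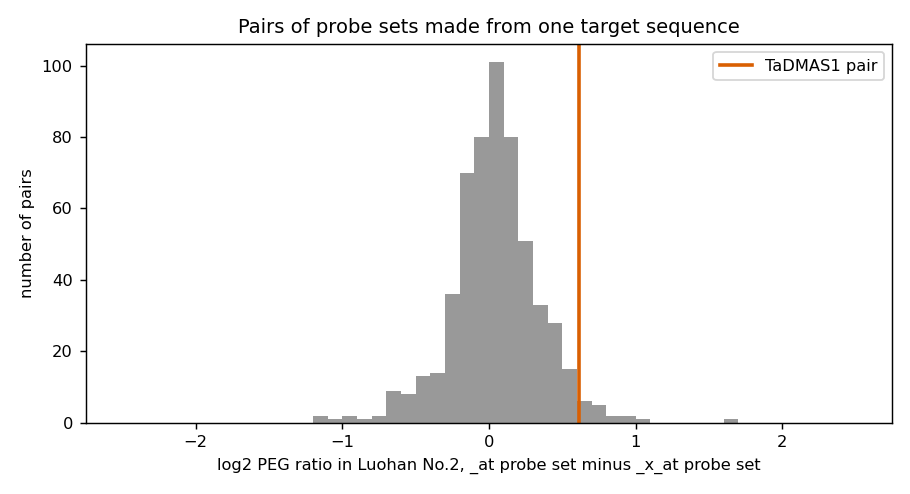
Histogram over 563 pairs of probe sets from one target sequence: x axis, log2 PEG ratio in Luohan No.2 of the _at set minus that of the _x_at set; y axis, number of pairs. The orange line marks the TaDMAS1 pair at 0.62, towards the right edge of the distribution.

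Scatter was wider at the signal level of TaPCS1. For 302 pairs with mean signals between 50 and 200 in both probe sets, the SD of the difference within a pair was taken. Divided by the square root of 2 to give a spread for 1 probe set, it was 0.43 for the PEG ratio in Chinese Spring and 0.33 in Luohan No.2. The TaPCS1 ratios of 0.86 and 0.08 stand beside these. For the difference between the cultivars' PEG ratios the same SD was 0.57, and the TaPCS1 value was -0.78 on the log2 scale, Luohan No.2 minus Chinese Spring.

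Few other genes of metal chelation could be described through the annotation. Of 4 lists covering phytosiderophore synthesis and transport, S-adenosylmethionine and methionine salvage, phytochelatin and glutathione, and other metal handling, the first matched TaDMAS1 alone. The second matched APT1 and SAHH, the third TaPCS1 and lgul, and the last 0 genes. By their brightest probe sets, 0 of the 3 further genes were 2-fold apart in any comparison, beside 17.7% to 23.1% of all measured probe sets. For PEG and for cultivar, limma called 0 of 3 at the adjusted threshold, beside 1.32% and 2.06% of all probe sets. It called 0 of 3 at an unadjusted p under 0.05, beside 9.49% and 13.1%. With 3 genes such counts are no result. Their median log2 PEG ratio, 0.24 in Luohan No.2 and 0.38 in Chinese Spring, is that of SAHH. APT1 lay lower, at -0.25 and -0.14, and lgul, near the floor, higher, at 0.58 and 0.46.

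SAHH, S-adenosylhomocysteine hydrolase, clears the product of methyl transfer from S-adenosylmethionine. Its brightest probe set read 7786.9 in water and 9187.1 in PEG for Luohan No.2, and 9477.0 in water and 12351.6 in PEG for Chinese Spring. The PEG array was higher in each cultivar, by 1.18-fold and 1.30-fold, and the limma adjusted p for PEG was 0.915. The other SAHH probe set went the same way, by 1.17-fold and 1.62-fold. APT1, adenine phosphoribosyltransferase, recycles adenine, which methionine salvage releases when nicotianamine is made. It read 3529.0 in water and 2962.4 in PEG for Luohan No.2, and 2592.1 in water and 2347.1 in PEG for Chinese Spring, 1.19-fold and 1.10-fold lower in PEG (limma adjusted p = 0.956). The gene listed as lgul, lactoylglutathione lyase, uses glutathione to detoxify methylglyoxal, and its brightest probe set, with signals between 9.3 and 16.2, was at or near the floor. The other lgul probe set was below the floor on all 4 arrays, with signals of at most 1.0.

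Likeness of pattern was measured among named genes as the Euclidean distance between log2 signals, each centred on its own mean over the 4 arrays. Of the 102 named genes, 55 besides each gene itself were above the floor on all 4 arrays. Nearest to the brightest TaDMAS1 probe set was APT1 at a distance of 0.08, where the median gene was at 0.73. The histone gene H2A-2 followed at 0.30 and ALP at 0.31. Both were highest on the Luohan No.2 water array, as that TaDMAS1 probe set was. The specific TaDMAS1 set was instead lowest on that array, at 120.5, and distances were not computed for the other TaDMAS1 sets. Nearest to TaPCS1 was the gene listed as la-17 at 0.15, where the median gene was at 0.89. It read 76.2 in water and 71.6 in PEG for Luohan No.2, and 49.9 in water and 89.1 in PEG for Chinese Spring, so that the arrays with its lowest and highest signal were those of TaPCS1. The translation factor gene Eif4B and SAHH came next at 0.53 and 0.55. Such distances over 4 arrays share the arrays and their scaling and describe these arrays only.

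**Figure D4:**
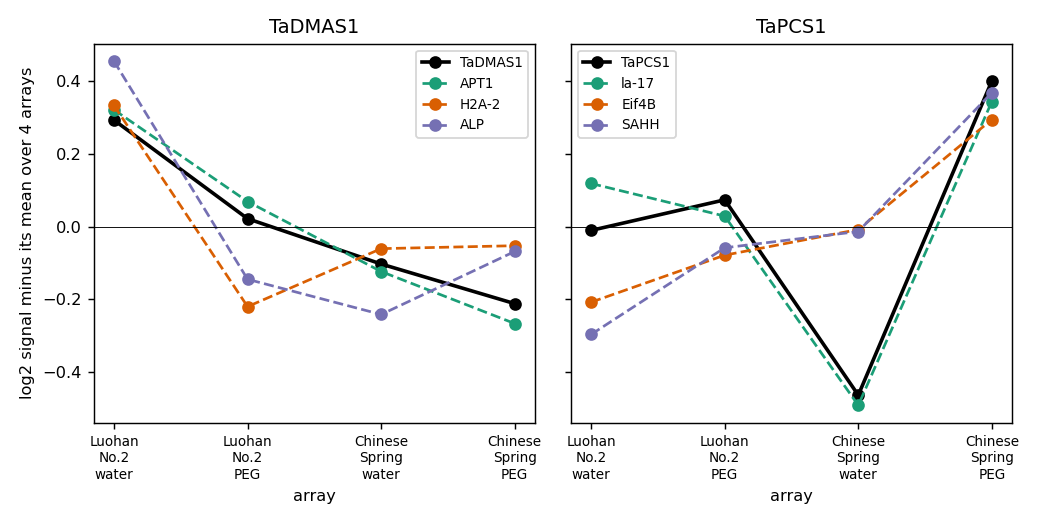
Log2 signal minus its mean over the 4 arrays (y axis) on each array (x axis) for the brightest probe set of TaDMAS1 (left) and for TaPCS1 (right), in black, with the 3 named genes of the smallest distance in colour; lines only join the points of a gene. APT1 follows the brightest TaDMAS1 probe set at a distance of 0.08, and la-17 follows TaPCS1 at 0.15. The other TaDMAS1 probe sets are not drawn.

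Markers of the labelled tissue and of green tissue were read on the same arrays. Of the root list only TaALMT1, a malate transporter of root tips, was matched. It read 22.9 in water and 10.6 in PEG for Luohan No.2, and 27.6 in water and 66.8 in PEG for Chinese Spring. The signal for Luohan No.2 in PEG was at the floor. Of 12 names for photosynthesis genes 7 were matched, with 0 of them listed at 0 on any array. Their summed signal was 2969 in water and 2747 in PEG for Luohan No.2, against 8709 in water and 8137 in PEG for Chinese Spring, most of it from rbcl. All 7 were higher in Chinese Spring in water and in PEG by their brightest probe sets. Measured probe sets as a whole also leaned that way, with a median log2 ratio of Luohan No.2 to Chinese Spring of -0.22 in water and -0.20 in PEG. The share of all probe sets higher in Chinese Spring was not computed. With PEG, 6 of the 7 were lower in Chinese Spring, among them petC at 288.7 in water and 129.3 in PEG, and 4 of the 7 in Luohan No.2. Trx-M, PRK, petC, FBP and PsbP were below the floor on 1 or 2 of the Luohan No.2 arrays, so their PEG direction in that cultivar is not firm. Rbcl read 2880.2 in water and 2678.3 in PEG for Luohan No.2, and 8007.0 and 7764.6 for Chinese Spring. Green tissue signal thus differed between the cultivars, and with PEG it had no clear direction in Luohan No.2. Its part in the ratios of TaDMAS1 and TaPCS1 was not tested. In bulk RNA, fewer cells of a type and less RNA per cell cannot be told apart.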

How the data were processed

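Per the submitters' processing notes, the authors made the deposited intensity values with MAS5 (version not stated). There is 1 linear signal per probe set and array. The values fit a single scaling factor per array, since the mean trimmed by 2% was 100.02 on each. Of 61290 probe sets, 111 controls were set aside. Signals below the 40th percentile of all 4 arrays together were raised to it before log2 transformation. Ratios of 1 array to another were counted at 2-fold, without a test. Effects of PEG and of cultivar were fitted additively with limma 3.58.1 in R 4.3.3 (lmFit, eBayes, Benjamini-Hochberg over the probe sets that exceeded the floor on 1 or more arrays), a step tested on simulated data. With 1 array per group, p-values set effects against the cultivar by PEG difference and array noise together, not against replicates. Genes were named through the platform annotation and, by gene identifier, a RefSeq table of the assembly IWGSC CS RefSeq v2.1, which holds 770 of the 771 genes. Every probe set of the 2 genes was named, then the listed genes matched by symbol or synonym, then the 3 nearest patterns of each gene. The rule for the members uses annotation alone, but the genes and lists were proposed with earlier results of these data known. Alternatives were other floors, a pseudocount, other scalings, probe set filters, other fits and arrays left out.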

Additional observations from a re-analysis of the deposited data

Results flagged for a closer look

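TaPCS1 and 1 TaDMAS1 probe set had cultivar ratios of opposite sign in water and in PEG, and this difference was not tested because each group has 1 array. For TaPCS1 the log2 ratio of Luohan No.2 to Chinese Spring was 0.45 in water and -0.33 in PEG. For the cross-hybridising TaDMAS1 probe set, Ta.5335.1.A1_x_at, it was 0.083 in water and -0.23 in PEG. The value 0.083 is below 0.22, the SD of 1 probe set from the 563 pairs in water. With equal array medians the ratios in PEG became 0.21 for TaPCS1 and 0.31 for Ta.5335.1.A1_x_at, the same sign as in water. The share of all probe sets with such a change of sign was not computed.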

How the results depend on the processing

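Arrays were paired only through the block in limma, since each group has 1 array. Of the 100 recomputed log2 ratios of the 4 probe sets, 92 moved by less than the spread between probe sets of one target. The 92 include every ratio under the other floors, which could not move because those floors altered no signal of the members. The count is therefore no measure of how stable the ratios are. The other 8 were the cultivar ratios of the 4 probe sets in water and in PEG, and all came from equal array medians. There the log2 ratio of Luohan No.2 to Chinese Spring in water became 0.98 for the brightest TaDMAS1 probe set and 1.04 for TaPCS1, so that 1 of 4 passed 2-fold where 23.9% of all measured probe sets did, and in PEG it became 0.77 and 0.21. The limma effect of cultivar also turned sign there, to 0.49 for the cross-hybridising and 0.37 for the specific TaDMAS1 set. Equal medians multiply each array by a single factor, so the 4 probe sets moved by the shift given above for bright probe sets. The matched medians were weak signals near the floor. They were 13.5 in water and 13.9 in PEG for Luohan No.2, and 20.3 and 20.2 for Chinese Spring. Why these medians differ between the cultivars was not tested.

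The share of probe sets past 2-fold depended on the floor. At the 20th percentile it was 33.6% and 37.3% for PEG in Luohan No.2 and Chinese Spring and 38.4% and 39.7% between cultivars in water and PEG. At the 60th it was 12.8% for PEG in Chinese Spring and 13.1% between cultivars in water. With log2(signal + 16) the 4 shares were 6.72%, 9.83%, 9.30% and 10.5%.

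In limma, 0 of the 4 probe sets passed in any of the 13 fits for either effect, and adjusted p ranged from 0.187 to 0.993. The number of PEG calls over all probe sets, 645 here, was 0 for floors at percentiles 20 and 60, with the pseudocount and without the cultivar block (4226, 3131, 4618 and 2896 at an unadjusted p under 0.05). It was 404 after quantile normalization, 159 with equal medians, 391 for probe sets above the floor on all arrays and 1327 with a prior that follows signal. The 1005 cultivar calls became 0 for a floor at percentile 20 and without the condition block (6044 and 5259 at an unadjusted p under 0.05). They were 214 for a floor at percentile 60, 191 with the pseudocount, 663 after quantile normalization, 518 with equal medians, 322 above the floor on all arrays and 1349 with a prior that follows signal. With any single array left out, in the fit without a block, limma called 0 for both effects (1773 to 6774 for PEG and 3060 to 10417 for cultivar at an unadjusted p under 0.05).

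In those fits with 1 array left out, the PEG effect of the brightest TaDMAS1 set ran from -0.39 to 0.0079, the positive value without the Luohan No.2 water array. Its cross-hybridising set ran from -0.35 to 0.20 for cultivar, with 0.20 without the Luohan No.2 PEG array and 0.043 without the Chinese Spring water array. The cultivar effect of TaPCS1 ran from -0.37, without the Chinese Spring water array, to 0.50. These fits drop the block together with the array, so each effect is mixed with the other factor, and a lone array is assumed to vary like the others.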

Other observations

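GSTZ1, a zeta-class glutathione transferase, was outside the gene lists and was chosen after its values were seen. Its brightest probe set read 1362.8 in water and 832.4 in PEG for Luohan No.2, and 944.9 in water and 1060.5 in PEG for Chinese Spring. With PEG it was thus 1.64-fold lower in the first cultivar and 1.12-fold higher in the second. A second probe set was 1.45-fold lower and 1.26-fold higher, and the third was lower in both, by 1.45-fold and 1.25-fold. The third set was also 2.02-fold higher in Luohan No.2 than in Chinese Spring in water and 1.73-fold higher in PEG (limma unadjusted p = 0.0468 for cultivar, adjusted p = 0.371). Between the cultivars in water 21.3% of measured probe sets were at least 2-fold apart. An unadjusted limma p under 0.05 for cultivar was reached by 13.1%. No PEG or cultivar effect of these 3 probe sets passed the limma threshold, with adjusted p between 0.371 and 0.984. Of all probe sets 1.32% passed it for PEG and 2.06% for cultivar.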
